A study of Mus musculus with 23 samples.

Results

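The comparison was of HL1002P with HH gastrocnemius, the large calf muscle, from mice carrying 2 different pairs of mutant Bub1b alleles. It used 7 of the 23 libraries of the study, chosen by the labels alone: 4 from HL1002P mice and 3 from HH mice. HL1002P mice carried 1 allele with the L1002P substitution and 1 hypomorphic H allele, which makes less of the protein BubR1, and HH mice carried the H allele on both chromosomes. The groups therefore shared an H allele and differed in what stood on the other chromosome. All mice were 8 to 10 months old, untreated and of a mixed 129Sve/C57BL/6 background, and the labels do not give the share of each strain in a mouse. The 4 wild-type (WT) gastrocnemius libraries entered the fit to help estimate the spread and are given beside the mutants. The study also sequenced inguinal fat of the same 3 genotypes, used here to see what the genes named in muscle did in other libraries. Both genotypes are models of mosaic variegated aneuploidy (MVA) syndrome, and the comparison asks how far the 2 allele pairs differ in one tissue.

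BubR1, the product of Bub1b, is a kinase-like protein of the spindle checkpoint, which holds a dividing cell before anaphase until every chromosome is attached to the spindle. The checkpoint acts by restraining the anaphase-promoting complex, and once that complex is active it marks securin, the product of Pttg1, for destruction, which frees the protease separase to cut the cohesin rings that hold sister chromatids together. Adult muscle is mostly made of fibres that no longer divide, and mice with little BubR1 are known for early loss of muscle and fat.

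The 7 libraries held 34137821 to 55266273 counts, and each had 16295 to 16793 genes with at least 1 count. The 15 genes used to check the tissue, such as Acta1 and Ckm, summed to 183100 to 209000 CPM (counts scaled to a common library size) in HL1002P and 158200 to 208300 CPM in HH, and all 15 were tested. Xist and Y-linked transcripts marked HL1002P replicates 1 and 2 and HH replicates 1 and 2 as male and HL1002P replicates 3 and 4 and HH replicate 3 as female, so both groups held both sexes. The labels call the replicates separate samples and say no more, so p-values measure the spread between these samples. In whole tissue, fewer cells of a type and less RNA per cell cannot be told apart.

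Bub1b itself was low in all muscle and lowest in HL1002P. It stood at 0.202, 0.181, 0.187 and 0.273 CPM in HL1002P replicates 1 to 4, against 0.326, 0.338 and 0.520 CPM in the HH replicates and 0.726 to 0.952 CPM in the 4 WT libraries. The 3 genotypes did not overlap. The log2 fold change of HL1002P over HH was -0.89 ± 0.35 (SE), with an unadjusted p of 0.0242 and an adjusted p of 0.988 in edgeR's quasi-likelihood test, so the difference did not pass. These values rest on 38 counts in the 4 HL1002P libraries and 55 in the 3 HH libraries. In fat, where the gene was higher, it stood at 22.02, 22.09, 18.56 and 6.12 CPM in HL1002P and at 5.96, 11.4, 14.3 and 9.25 CPM in HH, and the groups overlapped. The count table does not tell the L1002P transcript from that of the H allele.

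The codon changed in the L1002P allele is shown here as the reference has it, because it is what separates the genotypes. It is the codon the allele is named for, in a reading frame of 1052 codons in transcript Bub1b-201, and lies in exon 23 of 23 at chr2:118641164-118641166 on the plus strand (GRCm38). The 51 bases of coding sequence around it, at chr2:118641140-118641190, are given 5′ to 3′ with the codon in capitals.
Bub1b codon: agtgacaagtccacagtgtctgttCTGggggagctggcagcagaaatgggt

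Over all genes the 2 mutant muscles were about as far from each other as replicates were. The root mean square log2 difference between an HL1002P and an HH library averaged 0.444 (range 0.351 to 0.518 over 12 pairs), against 0.433 within HL1002P and 0.462 within HH. The distance to WT averaged 0.467 for HL1002P and 0.516 for HH, and pairs of WT libraries averaged 0.419. Of 14580 genes tested, 3 passed an adjusted p of 0.05, which is 0.0206% of those tested, and all 3 were higher in HL1002P. At an unadjusted p under 0.05, 322 genes were higher in HL1002P (2.21%) and 348 lower (2.39%), and the median log2 fold change over all genes was 0.0043. DESeq2 called 41 genes, 0.287% of those it tested (28 higher, 13 lower), the 3 among them. The 5 with its smallest p were Pttg1, Gm5860, Pdzd3, Vmn1r58 and Lrrcc1. A fit with the replicate number as a block called 3 genes, and the block fitted to the 7 libraries alone called 12, among them Nnt and Fmod, described further on. In the block on the 7 libraries HL1002P replicate 4 had no HH library of its number.

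**Figure D1:**
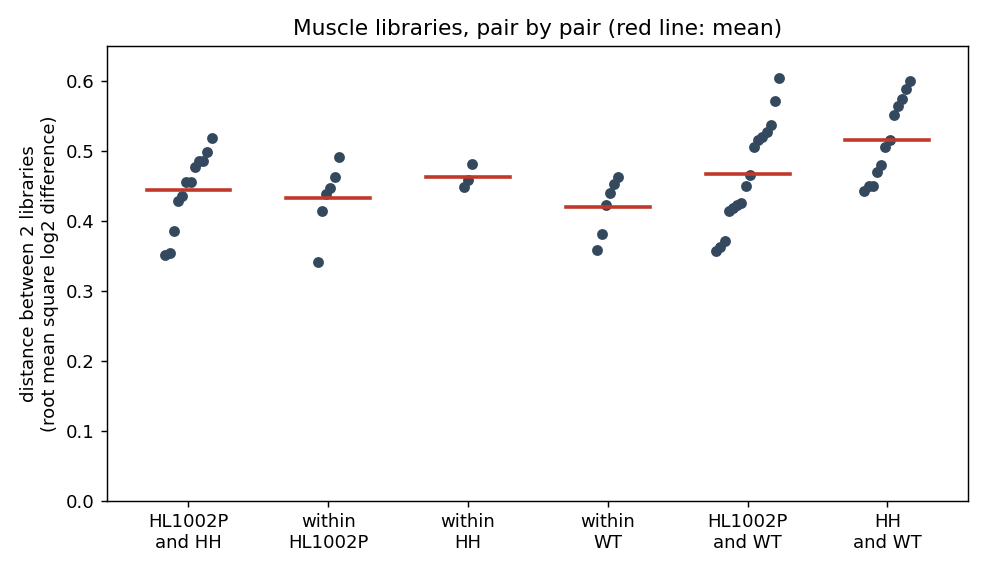
Distance between 2 muscle libraries (root mean square log2 difference over all genes tested, vertical axis), 1 point a pair, with the mean of each kind of pair as a red line. Pairs of HL1002P and HH libraries (mean 0.444) lie in the range of pairs within HL1002P (mean 0.433) and within HH (mean 0.462).

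Pttg1, Pdzd3 and Gm5860 were nearly absent from HH muscle and stood at the WT level in HL1002P muscle. Pttg1 (chr11:43420244-43427463), the gene of securin, had 33.9, 28.8, 27.7 and 30.5 CPM in the HL1002P libraries, against 1.19, 1.35 and 1.82 CPM in the HH libraries and 27.5 to 40.7 CPM in WT. Every HL1002P library lay far above the highest HH library, and HL1002P and WT overlapped. The log2 fold change was 4.37 ± 0.20 (SE; edgeR adjusted p = 4.86e-07). In counts, 5317 reads in HL1002P stood against 203 in HH, a depth-corrected ratio of 20.6 with a 95% interval of 17.9 to 23.9 that covers counting error only.

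Pdzd3 (chr9:44247312-44251464) encodes a scaffold protein with PDZ domains, known from kidney and gut, where such proteins tether membrane receptors and transporters. It was low in WT muscle at 1.4 to 1.90 CPM, and had 1.70, 1.963, 1.85 and 1.45 CPM in HL1002P against 0.0466, 0.0398 and 0.0217 CPM in HH. The HH libraries held 5 counts in all and the HL1002P libraries 305, a ratio of 48.1 (95% counting interval 20.4 to 149.1). The log2 fold change was 5.49 ± 0.35 (edgeR adjusted p = 1.68e-05). The HL1002P and WT ranges overlapped, and no HH library came near either. Nlrx1, the next gene on chromosome 9, starts at 44252713 and was chosen after its values were seen: its log2 fold change was 0.39, with an unadjusted p of 0.00518.

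Gm5860 (chr4:82065380-82102807), a long non-coding RNA with no role given in the annotation used, had 4.69, 4.78, 4.02 and 3.60 CPM in HL1002P and 0.0233, 0.179 and 0.13 CPM in HH. WT libraries held 2.39, 5.68, 5.81 and 2.74 CPM, which span the HL1002P values. The log2 fold change was 5.20 ± 0.51 (edgeR adjusted p = 1.33e-03), from 745 counts in HL1002P and 16 in HH. Of the 50-base words in its annotated transcripts, 111 of 2665 (4.17%) also occur in transcripts of other genes, so some of its reads could have been placed elsewhere. For Pttg1 (0 of 2166) and Pdzd3 (0 of 2192) no word was shared.

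Each mutant was also set against WT in the same fit. The comparisons with WT share the 4 WT libraries and are given side by side. For Pttg1 the log2 fold change was -0.10 ± 0.15 in HL1002P over WT (adjusted p = 0.843) and -4.48 ± 0.20 in HH over WT (adjusted p = 3.88e-07). For Pdzd3 it was 0.06 ± 0.22 in HL1002P (adjusted p = 0.946) and -5.44 ± 0.35 in HH (adjusted p = 1.89e-05). For Bub1b it was -1.96 ± 0.32 in HL1002P (edgeR adjusted p = 0.0498) and -1.07 ± 0.33 in HH (adjusted p = 0.147). The drop from WT thus passed narrowly in HL1002P and did not pass in HH.

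The calls of Pttg1, Pdzd3 and Gm5860 held in each of the 11 fits that left out 1 library. Without HL1002P replicate 2, 7 genes passed, adding Park2, Flywch2, Gm10653 and Gm8801, and without HH replicate 1, 6 passed, adding Tbc1d4, Ucp1 and 1190007I07Rik. Leaving out HL1002P replicate 3 added Vmn1r58, and leaving out replicate 4 added C130046K22Rik, which also passed in the male libraries alone. Gm5860 did not pass with limma voom (adjusted p = 0.237). Within the male libraries alone Pttg1 and Pdzd3 passed and Gm5860 did not (adjusted p = 0.173). Within the female libraries, with 1 HH library, Pttg1 alone of the 3 passed (log2 fold change 3.998, adjusted p = 0.0184), while Pdzd3 and Gm5860 had log2 fold changes of 6.08 and 4.84.

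**Figure D2:**
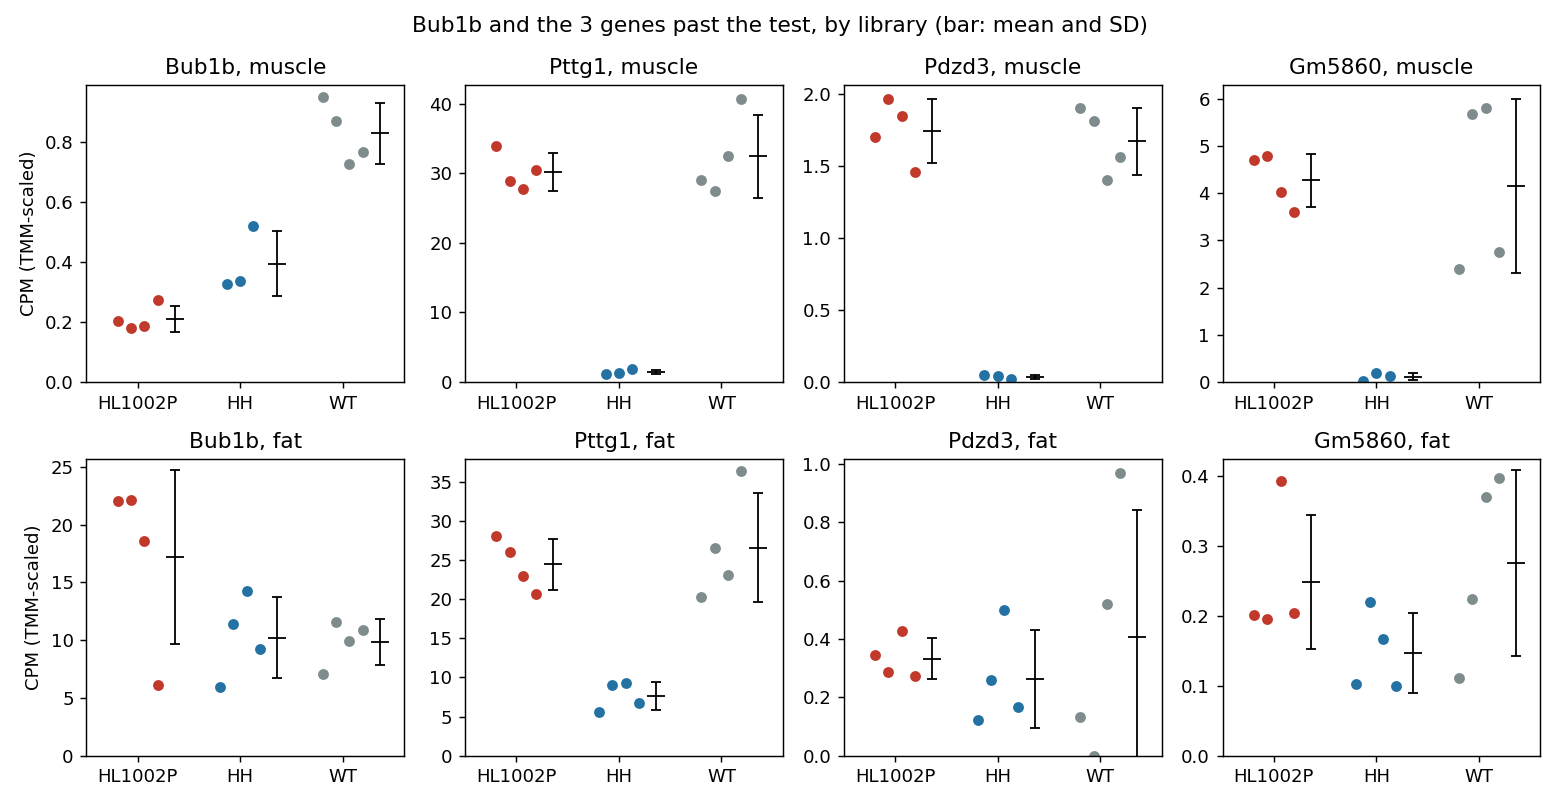
Level of Bub1b, Pttg1, Pdzd3 and Gm5860 in each library (CPM on TMM-scaled library sizes, linear axis from 0) in muscle (upper row) and fat (lower row) for HL1002P, HH and WT, with mean and SD beside the points. In muscle the 3 HH libraries of Pttg1, Pdzd3 and Gm5860 lie near 0, below all HL1002P and WT libraries. Of the 4 genes in fat, Pttg1 is the one whose HL1002P and HH libraries do not overlap.

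In fat the difference in Pttg1 was present and smaller. HL1002P fat held 28.04, 25.98, 22.96 and 20.7 CPM, against 5.63, 8.99, 9.26 and 6.74 CPM in HH fat and 20.3 to 36.4 CPM in WT fat. The groups did not overlap, and the log2 fold change was 1.67 ± 0.22 with an adjusted p of 0.055, just short of the threshold. No gene passed in fat among 16266 (0%), where 535 had an unadjusted p under 0.05 and DESeq2 called 20. Without WT fat replicate 4, 3 genes passed (Pttg1, Slfn8 and Mst1), and without WT fat replicate 1, Mst1 did. The test of the difference between tissues passed for Pttg1 (muscle minus fat 2.70 ± 0.31 on the log2 scale, adjusted p = 0.000285), the single call among 11870 genes (0.00842%), of which 2.56% had an unadjusted p under 0.05.

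Pdzd3 and Gm5860 were low in fat of every genotype. Pdzd3 averaged 0.332 CPM in HL1002P fat, 0.262 CPM in HH fat and 0.406 CPM in WT fat, and its log2 fold change of 0.38 ± 0.88 had an adjusted p of 0.999. Gm5860 had a log2 fold change of 0.75 ± 0.51, with an unadjusted p of 0.165. Neither reached the level needed for the test between tissues.

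For the 2 protein-coding genes, sequence at an annotated start is shown because their transcripts were almost missing from one mutant. Both windows run from 250 bases before to 50 after a RefSeq start (GRCm38.p6) on the minus strand, at chr11:43425932-43426231 for Pttg1 and chr9:44251415-44251714 for Pdzd3. The Pttg1 window is set on a transcript start inside the span given for the gene above, which reaches to 43427463, so it shows 1 of its starts and not the sequence before the outermost one. Both windows were searched on both strands for CCAAT, read also as ATTGG, and for the cell-cycle element TTTGAA, read also as TTCAAA, and matches are in capitals.
Pttg1 window: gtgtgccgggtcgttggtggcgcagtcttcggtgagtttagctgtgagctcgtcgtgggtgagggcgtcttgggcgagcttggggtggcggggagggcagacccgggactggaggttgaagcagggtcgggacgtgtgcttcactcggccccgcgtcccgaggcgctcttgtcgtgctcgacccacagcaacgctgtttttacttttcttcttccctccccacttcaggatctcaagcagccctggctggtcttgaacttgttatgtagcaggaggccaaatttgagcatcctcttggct
Pdzd3 window: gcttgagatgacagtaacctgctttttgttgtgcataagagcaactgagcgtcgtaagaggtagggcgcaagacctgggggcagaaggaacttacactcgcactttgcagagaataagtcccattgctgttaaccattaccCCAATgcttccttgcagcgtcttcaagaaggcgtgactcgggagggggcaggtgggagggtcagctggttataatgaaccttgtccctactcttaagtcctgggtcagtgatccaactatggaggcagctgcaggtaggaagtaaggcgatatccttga
The Pdzd3 window held 1 CCAAT, 109 bases before the start, and the Pttg1 window no match to either motif, which says nothing of its other starts. Of 32851 promoters of this length, 37.4% hold CCAAT and 17.9% hold TTTGAA. These are letters in the reference and not the sequence of the mice.

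Below the threshold, genes averaging 1 CPM or more with no overlap between the mutants were ranked by p, passing over predicted genes and pseudogenes. Of these, the 10 with the smallest p on the higher side were Vmn1r58, Lrrcc1, Ttc38, Nme6, Gadd45gip1, Parp3, Nnt, Hist2h2be, Nek3 and Tnpo2. None passed, with edgeR adjusted p of 0.134 to 0.316, while DESeq2 called all 10, and Vmn1r58 passed edgeR without HL1002P replicate 3 (adjusted p = 0.0135). In each the HL1002P and HH libraries did not overlap, as the rule that named them asked. Over all genes, the groups did not overlap in 783 (5.37%): 403 (2.76%) had every HL1002P library above every HH library and 380 (2.61%) had every one below.

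Nnt, the transhydrogenase of the inner membrane that supplies NADPH, had 144.5, 159.4, 233.3 and 222.6 CPM in HL1002P against 71.9, 48.2 and 83.0 CPM in HH, a log2 fold change of 1.49 ± 0.28. With the replicate block on the 7 libraries Nnt passed (1.41, adjusted p = 0.0488). Gadd45gip1, a protein of the mitochondrial ribosome, had 47.5, 28.2, 28.0 and 43.2 CPM against 19.02, 18.37 and 14.22 CPM in HH (log2 fold change 1.09 ± 0.20). Nme6, a nucleoside diphosphate kinase, had 18.2, 21.4, 18.9 and 18.9 CPM against 12.2, 13.4 and 11.3 CPM in HH (log2 fold change 0.66 ± 0.12). In each of the 3 all WT libraries lay above all HH libraries. The strain C57BL/6J is known to carry a deletion that disables Nnt, and genotype and strain of origin at a locus cannot be told apart from these labels. The same holds for Pttg1, Pdzd3 and Gm5860.

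Lrrcc1, a protein of the centriole, had 5.67, 5.28, 4.51 and 4.07 CPM in HL1002P against 1.63, 1.95 and 2.51 CPM in HH, a log2 fold change of 1.26 ± 0.21. Parp3, which adds ADP-ribose at DNA breaks, had 58.2 to 75.3 CPM in HL1002P and 38.4 to 47.3 CPM in HH. Vmn1r58, of the vomeronasal receptor family, was low at 1.26 to 3.31 CPM in HL1002P and 0.4655 to 0.6502 CPM in HH. The kinase gene Nek3 (2.30 to 2.90 against 1.15 to 1.51 CPM), the histone gene Hist2h2be (6.42 to 8.53 against 3.77 to 4.16 CPM) and the nuclear import receptor Tnpo2 (38.3 to 40.2 against 28.6 to 30.9 CPM) gave log2 fold changes of 1, 0.87 and 0.41. Ttc38 stood at 9.73, 11.2, 8.43 and 18.1 CPM in HL1002P, the last library being well above the others, and at 4.31, 4.34 and 4.72 CPM in HH. Vmn1r58 and Hist2h2be belong to multigene families, and how far their reads could be split with other members was not measured.

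On the lower side the 10 genes were Rasd1, Snapc3, Acaca, Cyp2e1, Gcn1l1, Ptgs2, Pla2g12a, Adarb2, Heatr3 and Zfp52, with edgeR adjusted p of 0.316 to 0.539, and none passed. Ucp1 on the lower side and Vmn1r65 on the higher did not overlap either, but averaged under 1 CPM and were not ranked. Their edgeR unadjusted p were 4.61e-05 and 0.000121 (adjusted p = 0.134 and 0.196), and DESeq2 called both. Of the 10 ranked genes DESeq2 called 8, all but Gcn1l1 and Zfp52. Acaca, acetyl-CoA carboxylase of fatty acid synthesis, had 16.2, 18.6, 23.6 and 22.6 CPM in HL1002P against 31.5, 34.2 and 34.2 CPM in HH, a log2 fold change of -0.72 ± 0.15. Pla2g12a, a secreted phospholipase, had 48.1 to 58.8 CPM in HL1002P and 147.2, 66.0 and 95.7 CPM in HH. Ptgs2, the inducible cyclooxygenase, had 0.317, 0.135, 0.304 and 0.345 CPM against 2.12, 4.28 and 0.390 CPM, so HH replicate 3 lay near the HL1002P libraries.

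Cyp2e1, a cytochrome P450 that oxidises ethanol and other small molecules, had 12.5, 7.54, 27.8 and 14.9 CPM in HL1002P against 48.2, 42.4 and 64.3 CPM in HH, and 5.63 to 11.5 CPM in WT. Its log2 fold change was -1.72 ± 0.37, and in fat, where its level was far higher, it was -1.34 ± 0.43 (unadjusted p = 0.00899). Rasd1, a small GTPase induced by glucocorticoids, had 1.67 to 4.32 CPM in HL1002P against 6.33 to 9.23 CPM in HH. Snapc3, a subunit of the complex that starts transcription of small nuclear RNAs, had 4.02 to 5.47 against 8.87 to 9.88 CPM. Gcn1l1, which activates the stress kinase GCN2, had 65.3 to 70.6 against 82.5 to 104.7 CPM, and Heatr3, which carries ribosomal proteins to the nucleus, had 47.7 to 55.7 against 65.2 to 67.5 CPM. Adarb2, of the RNA-editing family and with no known editing activity, and the zinc-finger gene Zfp52 gave log2 fold changes of -0.999 and -0.85.

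The fat libraries took no part in naming these genes. Of the 20, 19 had the same sign in fat (all 10 of the higher genes and 9 of the lower), against 7866 of 14274 genes tested in both tissues (55.1%). Of the 20, 6 also had an unadjusted p under 0.05 in fat, where 3.29% of all genes did (1.41% on the higher side), and 5 did not overlap in fat, where 2.13% of all genes did not (1.14% on the higher side and 0.996% on the lower). Nme6 in fat stood at 9.26, 9.68, 6.71 and 7.41 CPM in HL1002P against 5.46, 4.01, 4.76 and 5.42 CPM in HH. Gadd45gip1 in fat stood at 36.8, 28.8, 22.5 and 32.1 CPM against 16.6, 15.9, 18.8 and 19.03 CPM. Gcn1l1 and Heatr3 had log2 fold changes of -0.39 and -0.28 in fat, with no overlap. The labels do not say which muscle and fat libraries came from one mouse, so whether the tissues share animals is unknown.

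**Figure D3:**
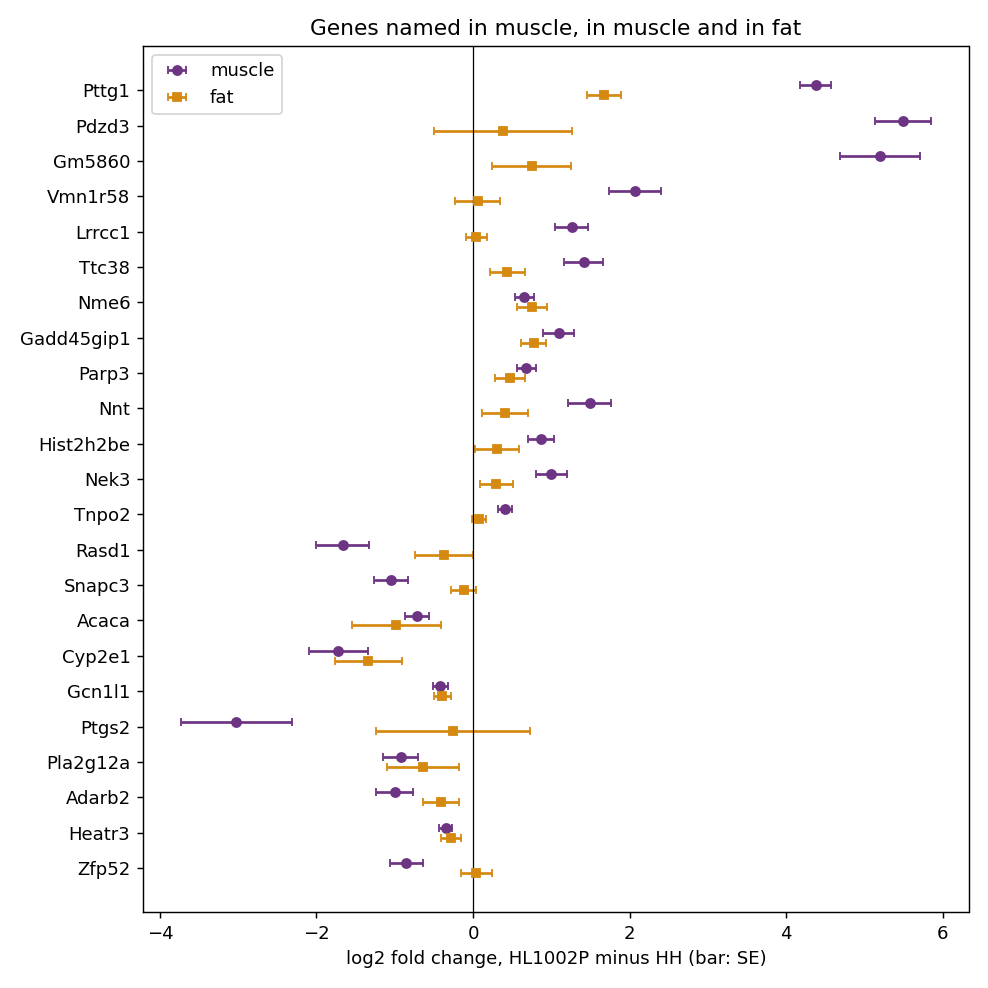
Log2 fold change of HL1002P over HH with its SE (horizontal axis) in muscle (circles) and fat (squares) for the 3 genes past the test and the 20 named below the threshold. The muscle values chose the genes. In fat 19 of the 20 have the same sign as in muscle, and Zfp52 does not.

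The WT range was placed beside both mutants for each of the 20. In 17 the WT range overlapped that of HL1002P and not that of HH, in 2 (Pla2g12a and Heatr3) it overlapped that of HH alone, and in 1 (Ptgs2) it overlapped both. Among all 783 genes whose mutant libraries did not overlap, the WT range overlapped HL1002P alone in 312 (39.8%), HH alone in 44 (5.62%), both in 396 (50.6%) and neither in 31 (3.96%). The 20 were chosen for small p, so the shares are set side by side with no test. Heatr3, with 59.4 to 65.6 CPM in WT, was an example where HL1002P was the group apart.

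Some of the named genes lay close together. Gadd45gip1 and Tnpo2 both lie on chromosome 8, and of the 52 other genes tested within 1 Mb of Gadd45gip1, 11 (21.2%) had an unadjusted p under 0.05, against 4.6% of all genes and 6.84% of chromosome 8. Wdr83 had 26.49, 19.05, 19.03 and 22.17 CPM in HL1002P and 14.2, 16.1 and 13.0 CPM in HH, and was chosen after its values were seen. The 11 had both signs and included Ier2 and Junb, at -1.68 and -2.11. Around the 3 genes that passed, the same window held 0 of 5 such genes at Pttg1, 4 of 41 at Pdzd3 (9.76%) and 1 of 4 at Gm5860, numbers too small to rank. Within 20 Mb of Bub1b, where the alleles themselves lie, 12 of 266 genes (4.51%) had an unadjusted p under 0.05 and 0 had one under 0.01. Vmn1r65 lies near Vmn1r58 on chromosome 7, and Nek5 beside Nek3 on chromosome 8, both chosen after their values were seen. Vmn1r65 and Nek5 had log2 fold changes of 5.48 and 4.18, with 2 and 3 counts in all HH libraries.

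Single HL1002P libraries stood with HH for some genes, named here after their values were seen. Among 12184 genes averaging 1 CPM or more, those in which 3 HL1002P libraries were at least 1.5-fold from every HH library and the remaining one lay with HH numbered 13 for HL1002P replicate 1, 0 for replicate 2, 4 for replicate 3 and 2 for replicate 4. Gdf5, a growth factor of joints and tendon, had 18.3, 1.22, 1.59 and 1.82 CPM in HL1002P against 15.4, 3.48 and 3.01 CPM in HH, and Cpne2 had 90.3, 19.5, 16.3 and 17.5 CPM against 131.9, 39.3 and 38.2 CPM. In both genes replicate 1 of each mutant was the high library. The 4 genes that edgeR added without HL1002P replicate 2 were outside that count. Park2, a ubiquitin ligase of mitochondrial turnover, had 20.1, 8.35, 21.1 and 20.4 CPM in HL1002P against 7.75, 8.05 and 6.16 CPM in HH, and 21.6 to 25.0 CPM in WT. HL1002P replicate 2 was thus beside the HH libraries and the other 3 beside WT. The pseudogene Gm8801 had 0.893, 0, 1.28 and 1.65 CPM in HL1002P and at most 0.0398 CPM in HH. In fat Gm8801 had 1.98, 0, 3.16 and 2.38 CPM in HL1002P, so the library numbered 2 was at 0 in both tissues. Libraries of equal number were not always from 1 mouse. Replicate 3 of HL1002P and of HH was marked female in muscle and male in fat.

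The gene lists that follow were described by their counts and medians beside those of all genes. Apart from Pttg1, no member of any list passed edgeR's test, so counts are at an unadjusted p under 0.05. Over all genes 2.21% were higher and 2.39% lower at that level. Among 26 tested members of the spindle checkpoint and anaphase-promoting complex, 1 was lower (Bub1b) and 0 higher, and the median log2 fold change was 0.02. Over the 15 tested members of the securin, separase and cohesin list the median was 0.01. The cohesin loader Mau2, at 20.5 to 29.1 CPM in HL1002P against 31.5 to 41.6 CPM in HH, was the 1 member on the lower side at an unadjusted p under 0.05, and Pttg1 the 1 on the higher side. Of 30 tested proliferation genes 0 were at p under 0.05 in either direction (median 0.20), and 20 were positive. Summed over that list, HL1002P held 125.3 to 140.6 CPM, HH 107.3 to 122.3 CPM and WT 128 to 137.1 CPM. The sums of the mutants thus did not overlap. Cdkn2a, the gene of the senescence marker p16, had 0.364 to 0.922 CPM in HL1002P and 0.4655 to 0.9345 CPM in HH against 0 to 0.105 CPM in WT, and the mutants overlapped. Its log2 fold change was -0.11 ± 0.53.

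**Figure D4:**
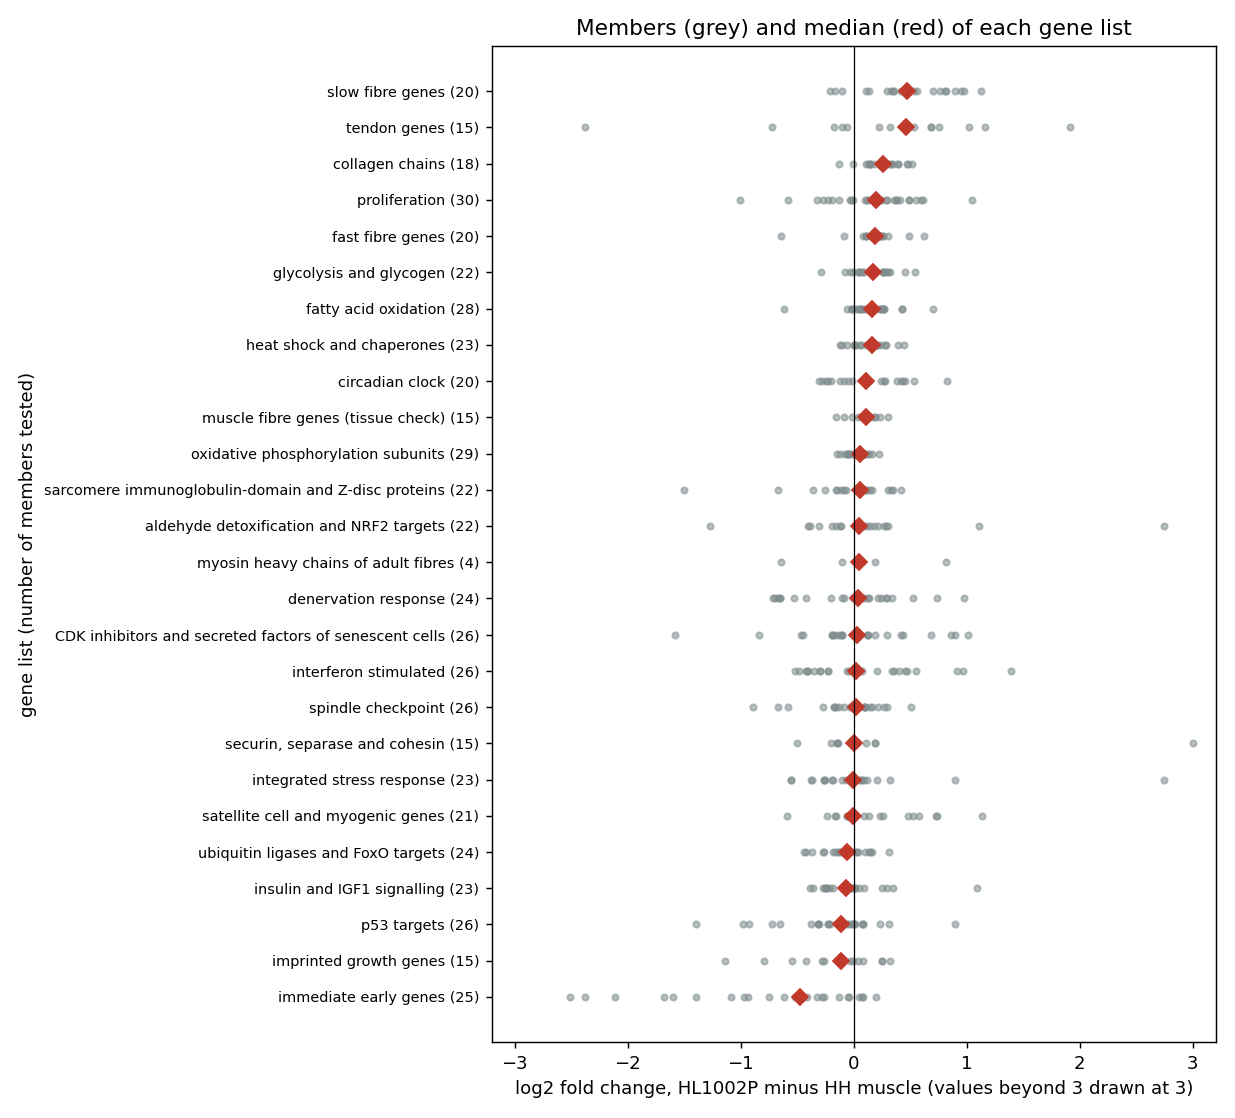
Log2 fold change of HL1002P over HH muscle for each tested member (grey) and the median (red diamond) of each process list, ordered by median, with the number of members tested in brackets. Medians lie between -0.48 (immediate early genes) and 0.47 (slow fibre genes), and the point drawn at 3 is Pttg1 at 4.37.

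Immediate early genes, switched on within minutes by stimuli, were the list with the lowest median, at -0.48 over 25 tested members. Of the 25, 9 were lower and 0 higher at an unadjusted p under 0.05, where 2.39% of all genes were lower. Fos, a subunit of the AP-1 transcription factor, had 32.1, 26.0, 6.21 and 19.2 CPM in HL1002P against 120.0, 222.4 and 14.2 CPM in HH, a log2 fold change of -2.51 ± 0.73 (unadjusted p = 0.00478, adjusted p = 0.868). Junb, another AP-1 subunit, had 35.4, 18.0, 13.8 and 20.3 CPM against 104.5, 162.4 and 15.8 CPM. HH replicates 1 and 2 were high and HH replicate 3 was at the HL1002P level for both. Egr1, a zinc-finger transcription factor, had 35.1, 18.9, 10.6 and 27.0 CPM in HL1002P against 112.5, 228.3 and 15.2 CPM in HH.

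The high libraries were the male HH pair. Only 1 HH library was female. Among female libraries alone the log2 fold change was 0.12 for Junb, 0.31 for Egr1, 0.65 for Btg2 and -0.15 for Fos. Among male libraries alone it was -2.335, -2.67, -2.14 and -2.57 in the same order, and none of these passed. In fat Fos had 21.7, 467.9 and 327.7 CPM in the male HH libraries and 34.1, 27.1 and 307.7 CPM in the male HL1002P libraries. The part of sex was not tested. Summed over the list, HL1002P muscle libraries held 941.9, 763.5, 686.9 and 1037 CPM, against 1450, 1839 and 736.7 CPM in HH and 925.7 to 1248 CPM in WT. Plk2, a kinase of the p53 target list, followed the same order, with 12.1 to 17.4 CPM in HL1002P and 27.7, 42.4 and 16.5 CPM in HH.

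Genes of fatty acid oxidation had mostly positive log2 fold changes. Of 28 tested, 4 were higher and 1 lower at an unadjusted p under 0.05, where 2.21% of all genes were higher and 2.39% lower. A positive sign was held by 23, where 50.9% of all genes had one, and the median was 0.16. The lean was not particular to this list. Positive signs were held by 18 of 22 glycolysis and glycogen genes (median 0.17) and 20 of 23 heat shock genes (median 0.16). The 15 muscle fibre genes of the tissue check had 12 (median 0.11). Lists that leaned the other way included immediate early genes (21 of 25 negative) and p53 targets (18 of 26 negative). Fabp3, which carries fatty acids through the fibre, had 382.3, 443.0, 458.2 and 490.8 CPM in HL1002P against 287.6, 220.6 and 311.0 CPM in HH and 640.8 to 1055 CPM in WT, so the 3 genotypes did not overlap. Its log2 fold change was 0.70 ± 0.17 (edgeR unadjusted p = 0.00144, adjusted p = 0.539), and DESeq2 called it (adjusted p = 0.0319). The carnitine carrier Slc25a20 had 80.3 to 85.8 CPM in HL1002P, 63.1 to 72.5 CPM in HH and 89.7 to 116.5 CPM in WT. Acad10 went against the list, with 5.96 to 7.19 CPM in HL1002P and 9.02 to 11.4 CPM in HH. The list's median was -0.32 for HL1002P over WT and -0.44 for HH over WT, comparisons that share the WT libraries. The 29 subunits of oxidative phosphorylation were mostly positive too (21 of 29), with a median of 0.05 and 0 at an unadjusted p under 0.05.

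The slow fibre list had the highest median, 0.47 over 20 genes, and 17 were positive, but only Fabp3 had an unadjusted p under 0.05. The fast fibre list was mostly positive too, at 18 of 20 with a median of 0.19. At an edgeR unadjusted p under 0.05 it held Myoz3 on the higher side (log2 fold change 0.62 ± 0.19, adjusted p = 0.906) and Myh1 on the lower. Myh7, the slow myosin, stood at 1388, 1415, 3446 and 2335 CPM in HL1002P and 1660, 261.0 and 1740 CPM in HH, with HH replicate 2 far below the rest. WT replicate 1 was as low, at 242.8 CPM. Myh1, the fast IIX myosin, had 4368, 2668, 2868 and 3301 CPM in HL1002P against 5366, 5958 and 4148 CPM in HH, a log2 fold change of -0.64 ± 0.21 (unadjusted p = 0.00968, adjusted p = 0.988). Myh4, the IIB myosin that dominates this muscle, had 34230 to 50440 CPM in HL1002P and 34050 to 45980 CPM in HH, and Myh2, the IIA myosin, had a log2 fold change of -0.10 ± 0.36.

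Genes of tendon and matrix had mostly positive log2 fold changes, and none passed over all 11 libraries. Fmod, a proteoglycan that binds collagen fibrils, had 63.7, 76.3, 128.0 and 137.0 CPM in HL1002P against 31.1, 39.69 and 64.95 CPM in HH and 89.8 to 190.5 CPM in WT. Chad, of cartilage and tendon, had 7.37, 4.97, 12.6 and 11.3 CPM against 1.44, 0.776 and 5.01 CPM in HH. For both genes 1 HL1002P library lay just below HH replicate 3, and the log2 fold changes were 1.16 ± 0.34 and 1.92 ± 0.58 (adjusted p = 0.868 and 0.906). With the replicate block on the 7 libraries Fmod passed (0.98, adjusted p = 0.0466). Of 18 collagen chains 16 were positive (median 0.26), with 0 at an unadjusted p under 0.05. The 15 tendon genes had 10 positive signs (median 0.46), and their sums overlapped, at 306.3 to 455.0 CPM in HL1002P and 338.5 to 501.7 CPM in HH, with Egr1 among them at -2.38. The 8 tenocyte markers summed to 215.3 to 324.7 CPM in HL1002P, 132.0 to 195.2 CPM in HH and 201.8 to 419.1 CPM in WT, so on this shorter list HL1002P and HH did not overlap. Fmod and Chad are themselves on that list, and the part of tendon cells in their values was not tested.

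**Figure D5:**
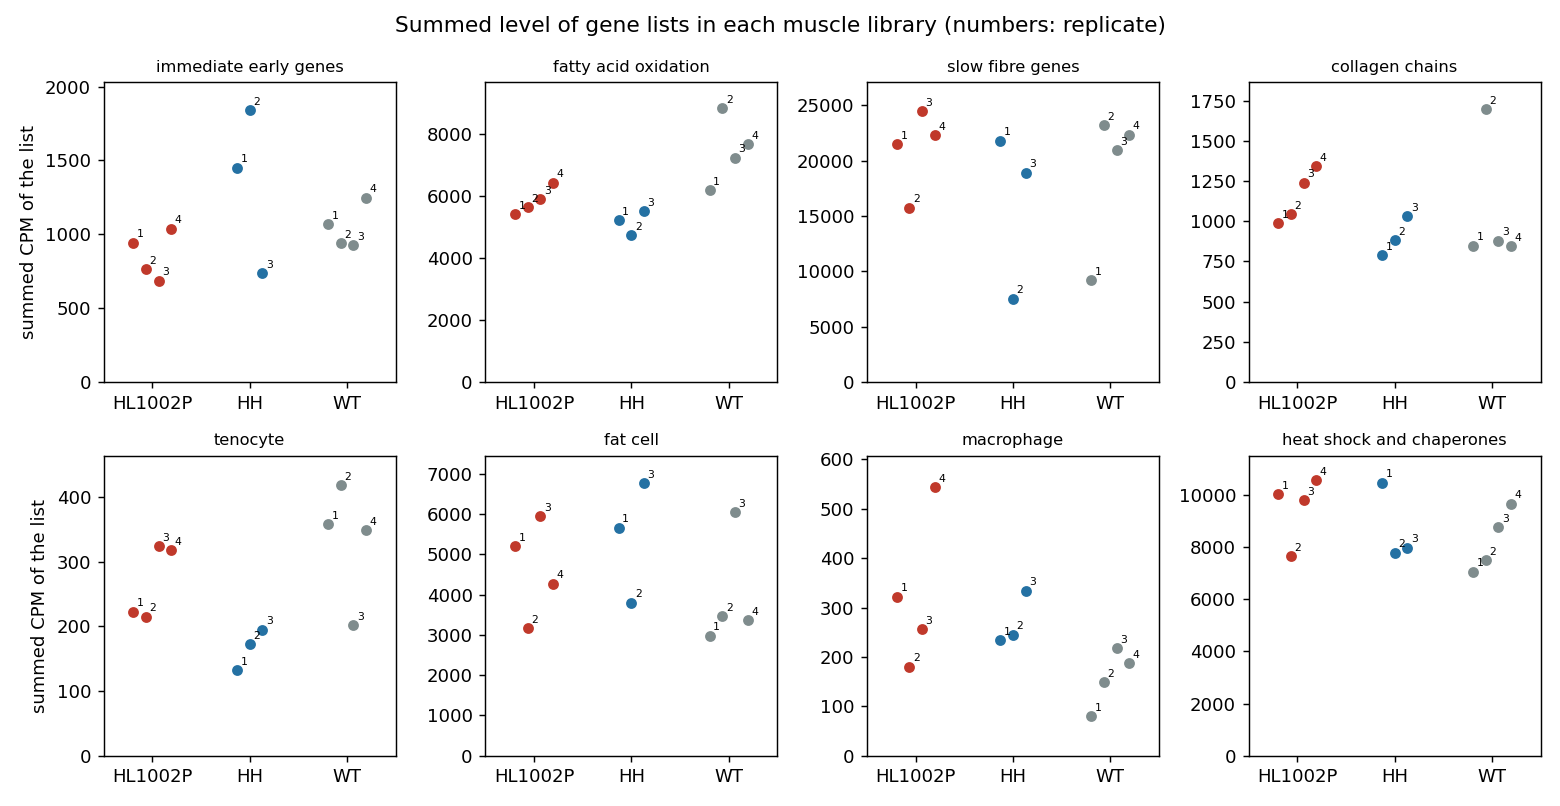
Summed level of 8 gene lists in each muscle library (CPM, linear axes from 0), with HL1002P, HH and WT from left to right and the replicate number beside each point. Immediate early genes are high in HH replicates 1 and 2 alone, slow fibre genes are low in HH replicate 2 and WT replicate 1, and tenocyte markers separate HL1002P (215.3 to 324.7) from HH (132.0 to 195.2). The fat cell sums are mostly Car3.

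Fat cell and macrophage markers overlapped between the mutants in their summed level. The 13 fat cell markers had a median of -0.33 and 12 were negative, but their sums ran from 3161 to 5954 CPM in HL1002P and from 3800 to 6768 CPM in HH. Car3 alone held 2669 to 4996 CPM in HL1002P and 3128 to 5301 CPM in HH, so these sums mostly follow that gene. Ucp1, the uncoupling protein of brown fat, was at 0, 0, 0.0467 and 0 CPM in HL1002P against 0.210, 1.57 and 1.26 CPM in HH. These values rest on 2 and 146 counts (edgeR adjusted p = 0.134, DESeq2 adjusted p = 0.000369). The defining markers Adipoq and Plin1 overlapped, at 17.9 to 57.5 and 26.3 to 73.1 CPM for Adipoq. Of 19 macrophage markers 18 were positive (median 0.30), with sums of 180.3 to 543.9 CPM in HL1002P and 233.3 to 333.9 CPM in HH, HL1002P replicate 4 being the highest. Endothelial, mast, T, Schwann and smooth muscle cell lists also overlapped in their sums and had 0 members at an unadjusted p under 0.05. The smooth muscle sum was mostly Des (5633 to 6702 CPM in HL1002P, 5710 to 7682 CPM in HH). Des is also among the muscle fibre genes of the tissue check, so that sum says little of smooth muscle cells. Of the red blood cell list, the 4 globin genes were listed at 0 in every muscle library. Alas2, of haem synthesis, had 2.10 to 3.199 CPM in HL1002P and 3.94 to 7.64 CPM in HH. Its log2 fold change was -1.14 (edgeR adjusted p = 0.539, DESeq2 adjusted p = 0.048).

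The remaining process lists had medians between -0.12 and 0.19, and no member passed. Of 26 tested p53 targets 1 was higher and 2 lower, of 26 genes of CDK inhibitors and secreted factors 3 were higher and 1 lower, and of 26 interferon-stimulated genes 0 were either. These counts are at an unadjusted p under 0.05, where 2.21% of all genes were higher and 2.39% lower. In the detoxification list Aldh3a1, an aldehyde dehydrogenase, had 2.46 to 3.29 CPM in HL1002P, 0.855 to 1.70 CPM in HH and 0.177 to 0.545 CPM in WT, while Gsta3, a glutathione transferase, had 0.922 to 1.68 CPM in HL1002P and 1.83 to 3.71 CPM in HH. Insulin and IGF1 signalling gave 1 in each direction: Akt1, the kinase, at 75.1 to 96.1 against 91.3 to 131.0 CPM, and Tbc1d4, which controls glucose transporter movement, at 35.5 to 57.4 against 43.5, 9.90 and 13.8 CPM. Tbc1d4 passed without HH replicate 1 (log2 fold change 2.01, adjusted p = 0.0231). Igfn1, of the sarcomere list, had 143.2, 80.6, 49.6 and 52.8 CPM in HL1002P against 291.6, 130.3 and 270.1 CPM in HH and 6.33 to 18.8 CPM in WT, so both mutants lay above WT.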

How the data were processed

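RNA-seq libraries of gastrocnemius (11) and inguinal fat (12) were analysed from the table of raw read counts per gene that the authors deposited, with 24062 genes, of which 3605 had no count in any library. Reads were processed with TopHat2 2.0.14, Bowtie2 2.2.6 and featureCounts 1.4.6 on mm10, per the submitters' processing notes. The annotation and the strand setting of the counting are not given in the sources used here, so overlapping and antisense genes may share reads. No 2 columns were identical.

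The counts were tested with edgeR 4.0.16 (R 4.3.3): genes passing filterByExpr, TMM scaling and the quasi-likelihood test on all 11 muscle libraries, with the contrast HL1002P minus HH and Benjamini-Hochberg adjusted p under 0.05. Fat was fitted apart in its 12 libraries, and the muscle minus fat difference in 1 model of 23 libraries over genes averaging 1 CPM or more in both tissues. CPM values are on TMM-scaled library sizes. The code was tested on simulated data. There the edgeR and voom fits were held to a limit on false calls, and DESeq2 in muscle was not. Alternatives were other scalings and filters, DESeq2 1.42.0, limma 3.58.1 voom, the 2 groups alone, a replicate block, a sex covariate, each sex mark alone, and each library left out. Figures were drawn with matplotlib 3.10.9.

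Replicate numbers come from the labels. Deviations of same-numbered HL1002P and HH libraries correlated at 0.288, 0.363 and 0.271, all over 0.1, so the numbers were taken to pair the samples, although HH replicate 3 correlated best with HL1002P replicate 4 (0.42). Each of these pairs also shared a sex mark. Male pairs of unlike number correlated at 0.0305 and -0.0622, and the part of sex was not tested. The main fit did not use the pairing.

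Genes were named by rule: Bub1b and Cdkn2a, every gene past the threshold, then 10 higher and 10 lower genes ranked by p among non-overlapping genes averaging 1 CPM or more, predicted genes and pseudogenes passed over, up to 3 of each process list, and the 5 leading calls of DESeq2 and of the block. The members and lists were chosen with earlier results of these data known. Positions are from RefSeq GRCm38.p6, where 23901 symbols were placed, promoters from RefSeq and the codon from GENCODE transcripts of GRCm38. Intervals on count ratios cover counting error only.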

Additional observations from a re-analysis of the deposited data

Results flagged for a closer look

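Among 63 groups of 4 libraries examined, 3 held a library far from its fellows, and chance gives about 1 in 20. Zfp52 stood at 5.51 CPM in HL1002P muscle replicate 2, against 3.74 to 3.95 CPM in the other 3. Btg2 stood at 63.1 CPM in HL1002P replicate 4, against 30.8 to 33.7 CPM in the others. Serpine2 stood at 118.6 CPM in HL1002P replicate 2, against 91.3 to 94.8 CPM in the others. The difference in Pttg1 between HL1002P and HH was larger in muscle than in fat by 2.70 on the log2 scale in edgeR's test of the difference itself.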

How the results depend on the processing

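The muscle count of 3 genes was 41 with DESeq2, 12 with the replicate block on HL1002P and HH libraries alone, 1 in the Xist-marked libraries and 3 to 7 with 1 library left out, and stayed at 3 with the replicate block on all muscle libraries. The fat count of 0 was 20 with DESeq2, 1 with HL1002P and HH alone and 0 to 3 with 1 library left out. The count between tissues was 3 with DESeq2. Signs turned for genes that had not passed. Cdkn2a was 0.132 with the block, 0.101 with the block on the 2 groups, 0.041 in Y-marked libraries and -0.357 to 0.226 with 1 library left out. Myh2 was 0 with the block on the 2 groups, 0.015 in Y-marked libraries, and -0.412 to 0.286 with 1 library left out. In Xist-marked libraries Junb was 0.116, Egr1 0.308, Btg2 0.653 and Cxcl1 0.837. The cause was not tested. In muscle Pttg1 kept its sign and its call under every alternative run. In fat, where it had not passed, it passed with DESeq2 and without WT replicate 4. With 1 HH library among the Xist-marked, that library is assumed to vary like the others. Few counts limit Bub1b, Pdzd3 and Gm5860.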

Other observations

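A pair of genes near the threshold in fat were chosen after their values were seen. Slfn8, of a family induced in immune cells, had 32.0, 41.5, 29.6 and 19.3 CPM in HL1002P fat against 1.79, 4.13, 3.38 and 2.12 CPM in HH fat (log2 fold change 3.42 ± 0.45, edgeR adjusted p = 0.055). In muscle it had 0.288, 0.564, 0.327 and 0.927 CPM in HL1002P and 0.0466, 0 and 0.13 CPM in HH, also without overlap. Mst1 had 2.06, 2.59, 2.84 and 1.53 CPM in HL1002P fat against 0.144, 0.0797, 0.0834 and 0.0661 CPM in HH fat (log2 fold change 4.52 ± 0.61, adjusted p = 0.055), and was too low to test in muscle. C130046K22Rik was at 0, 0.0226, 0 and 1.64 CPM in HL1002P muscle and 2.30, 2.96 and 1.24 CPM in HH muscle, so HL1002P replicate 4 stood beside HH. It did not pass in the main fit (edgeR adjusted p = 0.988). It passed in the male libraries alone, without HL1002P replicate 4, and with the replicate block on the 2 groups.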
